A study of Mus musculus with 5 samples.

Results

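The skeletal muscle genes are 38 genes of the contractile apparatus and energy supply of striated muscle. They were listed by name for their roles in the tissue, and all 38 were among the 36716 genes of the count table. They were followed in upper back skin biopsies of 153 female SKH-1 mice, an outbred hairless strain, aged 7 to 8 weeks. The 9 naive mice received no treatment and carry no time point, and the other 18 groups held 8 mice each. On intact skin the mice received 10 µL of PBS, or 500 µg of nanosized titanium dioxide (nTiO2), zinc oxide (nZnO) or silver (nAg) in 10 µL. In the scratched groups the skin was brushed with 12 strokes of a metal brush, and then left without PBS, given PBS or given 1 of the nanomaterials. Skin was taken after 24 h or 7 d. The treatments were given on the skin surface of whole mice, and the biopsy is a bulk sample, so fewer muscle fibres and less RNA per fibre cannot be told apart.

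Skeletal muscle contracts when myosin of the thick filaments pulls on actin of the thin filaments. The filaments are anchored at the Z disc and the M band, and calcium released from the sarcoplasmic reticulum switches the troponin complex on. In mouse back skin a thin sheet of striated muscle, the panniculus carnosus, lies beneath the dermis and the dermal fat and is made mainly of fast fibres.

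The deposited values were counts of unique molecular identifiers (UMIs) read at the 3′ end of the transcript, so that each count stands for 1 captured molecule and gene length does not enter. Levels are given in CPM, the counts of a gene scaled to a common library total, and the muscle score of a mouse was the mean over the 38 genes of log2(CPM + 1). Total counts per mouse were between 201053 and 4028559, the lowest in 7 d PBS replicate 3, and RNA integrity numbers were between 7.7 and 9.9. Libraries were sequenced in 5 pools, most groups being spread over a pair of pools. The 7 d scratched groups were all in pools 4 and 5 while 7 d PBS and 7 d nTiO2 were in pools 1 to 3, and 7 d nZnO and 7 d nAg were in pools 4 and 5. At 7 d, pool and treatment therefore cannot be told apart in scratched against intact skin with PBS or nTiO2, nor in nZnO or nAg against PBS on intact skin. The treatment of 7 d nZnO replicate 7 reads as scratched in 1 deposited table and as intact in the other tables. It was kept as intact, and results that rest on it are also given without it. The series text speaks of 6 of 8 mice per group chosen for sequencing, whereas the count table holds 8 per group. The tissue label was checked against keratinocyte, fibroblast and macrophage markers, and Krt5, Krt14, Krt10, Col3a1, Dcn and Lyz2 were present in every mouse.

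The 38 muscle genes took between 0.0145% and 2.81% of the counts of a mouse, a 194-fold range. The median mouse had 0.383%, 23 mice had under 0.1% and 40 mice had over 1%. The lowest share, from 169 UMIs, belonged to 24 h scratched nTiO2 replicate 3, and the highest to 7 d scratched PBS replicate 2. The muscle score ran from 1.65 to 8.52 with a median of 5.25. The plot of the score by mouse shows a wide spread inside the groups. Of the variance of the score, 84.5% lay between mice of the same group, and 55.8% between mice of the same group and pool when the mice were divided into 39 such sets. Any division into small sets lowers such a share, and the shares were not tested. The score had a Spearman rho of 0.13 with the total count and of 0.18 with the RNA integrity number over the 153 mice.

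**Figure D1:**
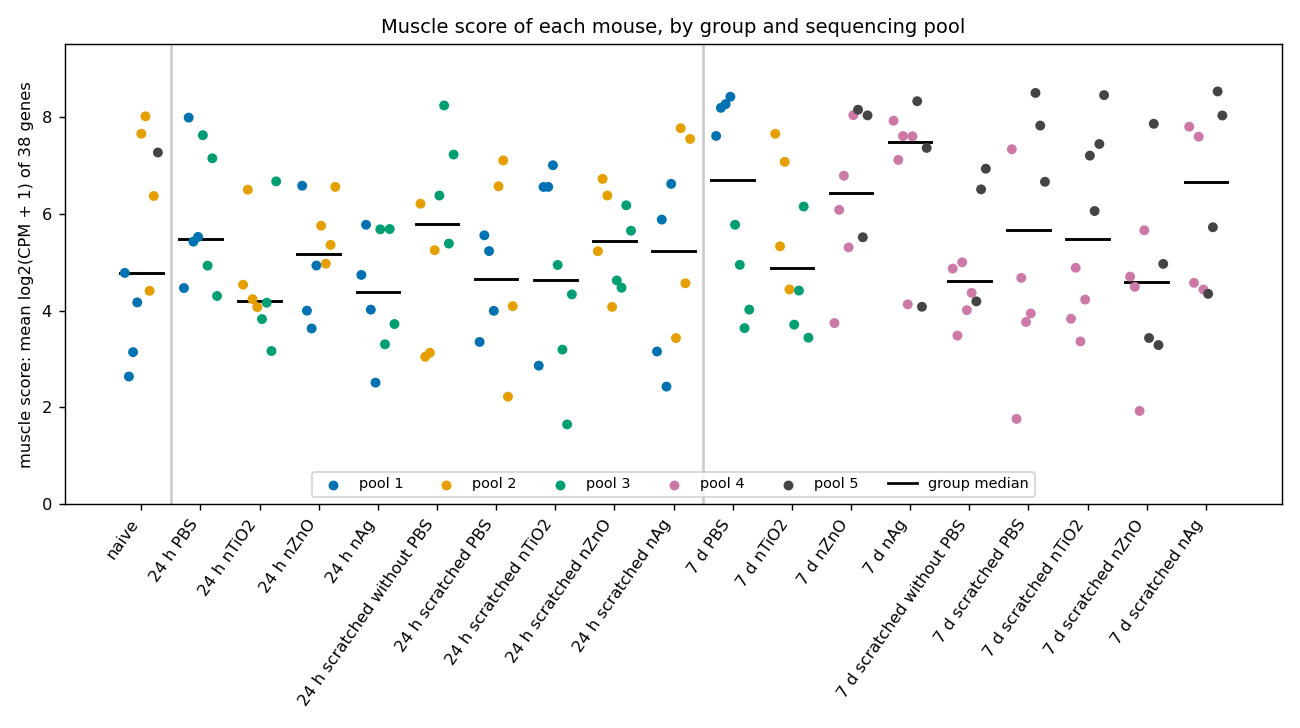
Muscle score (mean log2(CPM + 1) of 38 genes) of each of 153 mice by group, coloured by sequencing pool, with the group median as a bar. The scores run from 1.65 to 8.52 and the ranges of all groups overlap, while the 4 mice of 7 d PBS in pool 1 lie at 7.60 to 8.41.

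By group, the median score was lowest in 24 h nTiO2 at 4.20 (3.17 to 6.66) and highest in 7 d nAg at 7.48 (4.08 to 8.32). The naive mice had a median of 4.78 (2.64 to 8.01). At 24 h, PBS had a median of 5.47 (4.30 to 7.98), nZnO of 5.16 (3.63 to 6.58) and nAg of 4.38 (2.51 to 5.77). The ranges of these intact groups overlapped each other. The 24 h scratched groups had medians of 5.79 without PBS (3.05 to 8.23), 4.66 with PBS (2.22 to 7.10), 4.64 with nTiO2 (1.65 to 7.00), 5.44 with nZnO (4.08 to 6.72) and 5.22 with nAg (2.43 to 7.76). At 7 d, PBS had a median of 6.69 (3.64 to 8.41), nTiO2 of 4.88 (3.44 to 7.65) and nZnO of 6.43 (3.74 to 8.14), or 6.08 without nZnO replicate 7. The 7 d scratched groups had medians of 4.62 without PBS (3.48 to 6.93), 5.66 with PBS (1.76 to 8.49), 5.47 with nTiO2 (3.36 to 8.45), 4.59 with nZnO (1.93 to 7.85) and 6.65 with nAg (4.34 to 8.52). Within a group the scores spanned between 2.64 and 6.73 log2 units, and in 17 of 19 groups more than 3. The group medians thus differed by less than the mice of most groups did.

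Thin filament genes gave the largest part of the muscle counts, 36.5% from 6 genes. Tnnc2, the calcium-binding troponin C of fast fibres, was at a median of 498 CPM over the 153 mice (10.9 to 2791), and its gene is on chromosome 2 from 164619075 to 164621887 (GRCm39, Gencode M39). Acta1, skeletal muscle alpha-actin, was at 394 CPM (12.0 to 3073), on chromosome 8 from 124618501 to 124623661. Tnni2 and Tnnt3, the inhibitory and tropomyosin-binding troponins of fast fibres, lie near each other on chromosome 7. Tnni2 had a median of 340 CPM (13.7 to 2260) and Tnnt3 of 127 CPM (4.43 to 1262). Neb, the giant protein nebulin that runs along the thin filament, was at 109 CPM (1.77 to 917). Tmod4, a tropomodulin that caps thin filaments, was at 11.5 CPM and listed at 0 in 3 mice, with a highest value of 138.

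Thick filament genes gave 21.9% of the muscle counts. Mylpf, the regulatory light chain of fast myosin, had the highest mean of the 38 genes, 940 CPM, with a median of 642 (23.4 to 3391). It lies on chromosome 7 from 126807207 to 126813470. Myl1, the essential light chain, was at a median of 79.2 CPM (0.858 to 1046). The fast myosin heavy chains Myh2, Myh1 and Myh4 of type IIA, IIX and IIB fibres lie side by side on chromosome 11 between 67061838 and 67151274. Myh4 was at a median of 70.3 CPM (1.24 to 1322), Myh1 at 49.2 (0 to 306) and Myh2 at 6.75 (0 to 137). The myosin-binding proteins C Mybpc2, the fast form, and Mybpc1, the slow form, were at 23.6 CPM (0 to 374) and 14.8 CPM (0 to 129). Mylk2, the kinase of skeletal myosin light chain, was the least abundant member at 2.39 CPM (0 to 27.8) and was listed at 0 in 35 mice.

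Energy supply genes gave 18.6%. Ckm, the muscle creatine kinase that regenerates ATP, was at a median of 309 CPM (8.58 to 2486). The glycolytic enzymes Eno3 and Pgam2 were at 111 CPM (4.69 to 1173) and 62.2 CPM (0.858 to 735). Pygm, the muscle glycogen phosphorylase, was at 12.4 CPM (0 to 209). Mb, the oxygen carrier myoglobin, was at 92.4 CPM (1.72 to 766) and Cox6a2, a muscle subunit of cytochrome c oxidase, at 28.5 CPM (0.874 to 357).

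Genes of the Z disc, the M band and titin gave 14.7%. Ttn, the spring protein titin that spans from Z disc to M band, was at 303 CPM (2.57 to 2109). The intermediate filament gene Des, which smooth muscle also uses, was at 41.2 CPM (6.25 to 278), and had the narrowest range among the 21 genes with a count in every mouse, 44.5-fold. Tcap, the titin cap telethonin, was at 36.2 CPM (1.72 to 582). The cross-linking alpha-actinins Actn3, of fast fibres, and Actn2 were at 23.6 CPM (0.721 to 372) and 8.84 CPM (0 to 117). Xirp2, an actin-binding repeat protein, was at 35.7 CPM (0 to 301), Smpx, a small protein of striated muscle, at 21.7 CPM (0 to 386), and the Z disc genes Myoz1 and Ldb3 at 17.8 CPM (0 to 254) and 10.5 CPM (0 to 103). Myot, the Z disc protein myotilin, had a mean of 21.8 CPM (0 to 121). The M band genes Myom1 and Myom2 were at 6.78 CPM (0 to 56.0) and 3.80 CPM (0 to 68.3). Myot was listed at 0 in 7 mice and Myom2 in 21.

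Calcium handling genes gave 8.36%. Atp2a1, the calcium pump of fast fibres, was at 95.2 CPM (2.34 to 1001), and the calcium buffer Pvalb at 62.9 CPM (2.62 to 804). Trdn, the triadin that holds the release complex together, was at 77.5 CPM (0.858 to 783), Casq1, which stores calcium in the reticulum, at 12.6 CPM (0 to 184) and the release channel Ryr1 at 11.7 CPM (0.874 to 130). Cacna1s, the voltage sensor of the T tubule, was at 3.16 CPM (0 to 43.5) and was listed at 0 in 23 mice. Of the 38 genes, 21 had a count in every mouse, and the 6 most abundant held 58.2% of the muscle counts.

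**Figure D2:**
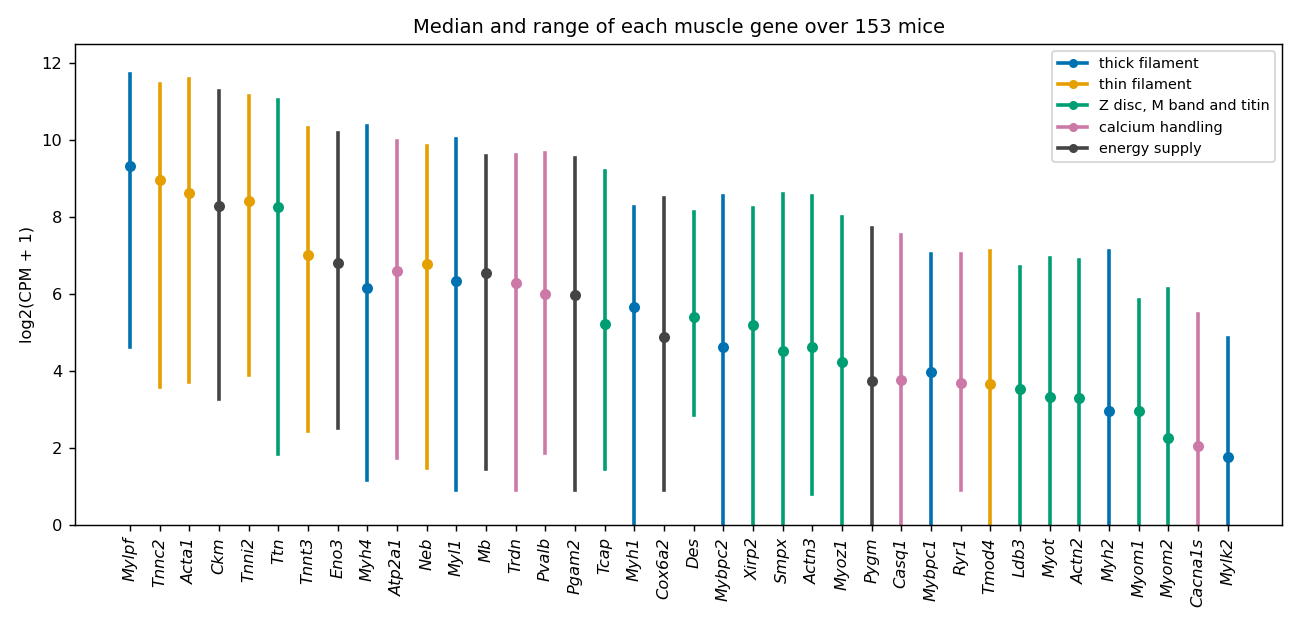
Median (point) and range (line) of log2(CPM + 1) of each of the 38 muscle genes over 153 mice, coloured by role and ordered by mean CPM. Mylpf leads with a median of 642 CPM, and the lines of low genes such as Mylk2 and Cacna1s reach 0.

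The 38 genes varied together. The Pearson correlation of each gene with the mean of the other 37 over the 153 mice was between 0.90 (Myom1) and 0.99 (Tnnt3), with a median of 0.97. After subtracting the mean of each group the median was 0.97 (0.89 to 0.99), so that the genes moved together among mice treated alike. Within single pools the correlations were between 0.81 and 1.00. These correlations describe mice that share pools. Over all mice they were lowest for Myom1, Cacna1s and Mylk2 (0.90, 0.90 and 0.91), genes of low counts. Myh1, at a mean of 77.5 CPM, followed at 0.91. The part of low counts in these values was not tested. In the mouse of lowest score the genes were low together, with Mylpf at 24.9 CPM, Acta1 at 12.0 and Myh4 at 1.72. In the mouse of highest score, 7 d scratched nAg replicate 7, they were at 2719, 2424 and 1270 CPM.

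Among the 9989 other genes that averaged 10 CPM or more, 23 had a correlation of at least 0.9 with the muscle score and 60 of at least 0.7. The 10 highest were Klhl31 (0.96), Ckmt2, Cmya5, Apobec2, Klhl41, Fitm1, Cox7a1, Cox8b, Pfkm and Nexn (0.94). Klhl31, a muscle member of the Kelch family, was at a median of 14.2 CPM (0 to 240), and Ckmt2, the creatine kinase of muscle mitochondria, at 12.4 CPM (0 to 216). Negative correlations were weaker. The 3 lowest were Rpl39l at -0.52, Reg1 at -0.46 and Hp, the plasma protein haptoglobin, at -0.45, and no other gene was under -0.5 than Rpl39l.

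The companion list of other skeletal muscle genes followed the score most closely. Of the 37 genes of this list averaging at least 1 CPM, 34 had a correlation over 0.7, and the list's summed level was between 710 and 4589 CPM. The tropomyosins Tpm1 and Tpm2, which are also used outside skeletal muscle, were at medians of 564 CPM (291 to 1721) and 458 CPM (194 to 1201) with correlations of 0.89 and 0.79. Fbxo32, a ubiquitin ligase of muscle atrophy, and Dmd, the dystrophin gene, were less tied to the score at 0.46 and 0.51. Mef2c, a transcription factor used in muscle and other cells, was at 88.3 CPM (41.9 to 264) with a correlation of 0.88, and Myf6, the regulator of mature fibres, at 0.98 CPM (0 to 11.3) with 0.84. Markers of satellite cells were near 0, with Pax7 at 0 in 134 of 153 mice and Myf5 in 141. The marker of embryonic fibres Myh3 was at 0 in 120 mice.

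Slow fibre genes summed to 5.59 to 109 CPM. Among them Tnnt1, the slow troponin T, was at a median of 5.79 CPM (0.704 to 38.3) and Myoz2 at 1.99 CPM (0 to 29.0) with a correlation of 0.87. Myh7, the slow myosin heavy chain, was at 0 in 139 mice with a highest value of 7.23 CPM, and the atrial genes Nppa and Myl7 were at 0 in 148 and 138 mice. The heart myosin gene Myh6 was at 0 in 151, whereas Myl4, another atrial light chain gene, was at 4.31 CPM (0 to 32.5). The neuromuscular junction list had a summed level of 1.15 to 31.0 CPM. Smooth muscle genes did not follow the score in general: Acta2, at a median of 106 CPM, had a correlation of 0.07 and Myh11 of -0.11, while Synpo2, also used in skeletal muscle, was at 0.84 and Lmod1 at 0.54. As list scores, slow fibre genes had a correlation of 0.61 with the muscle score, developmental myosins of 0.63, heart muscle genes of 0.43, neuromuscular junction genes of 0.60, smooth muscle genes of 0.31, myogenic regulators of 0.86 and other skeletal muscle genes of 0.98. It was 0.12 for Schwann cell and 0.03 for brown adipocyte genes, whose marker Ucp1 was at 0 in 137 mice. Cell types of the other skin layers had weak correlations of their list scores with the muscle score, 0.09 for keratinocyte genes, -0.21 for fibroblast, -0.26 for adipocyte, -0.23 for macrophage, -0.10 for endothelium and -0.07 for red blood cell genes. In the adipocyte list Adipoq was at -0.33 and Fabp4 at -0.31. These list levels were measured in the same libraries, and their part in the muscle score was not tested.

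**Figure D3:**
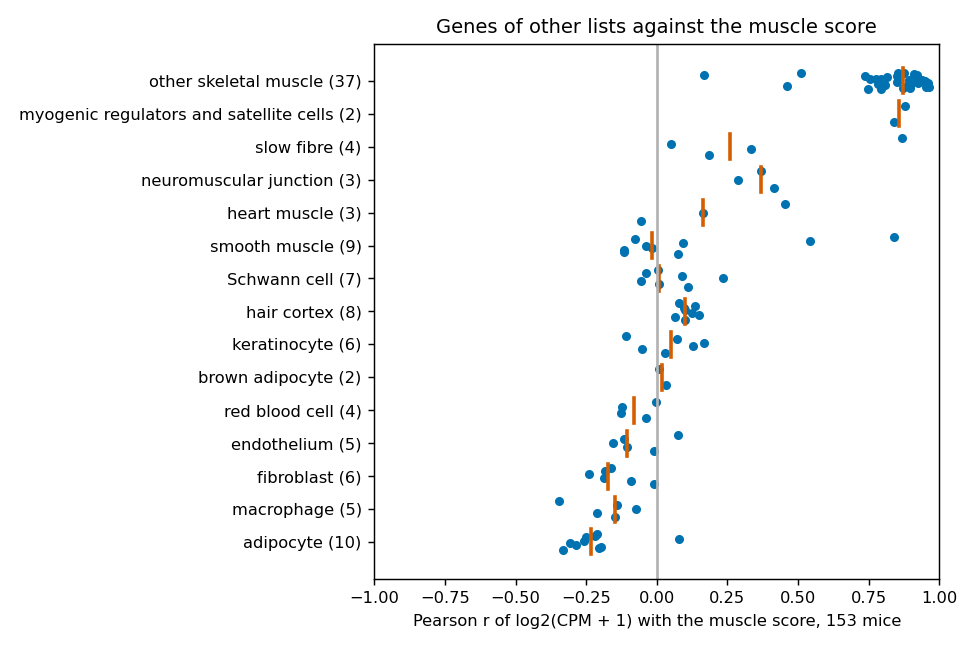
Pearson correlation with the muscle score over 153 mice for each gene of the companion lists with a mean of at least 1 CPM (points, number of genes in brackets) and the list median (bar). Genes of other skeletal muscle lie mostly above 0.7, and keratinocyte, fibroblast, endothelial, adipocyte and macrophage genes lie between -0.35 (Mrc1) and 0.17 (Krt10).

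Because the genes varied together, their promoters were read for the binding motifs known from muscle gene control. The RefSeq promoter table (GRCm38.p6, an older build than that of the counts) covers 250 bases before to 50 after a gene's start and held 27 of the 38 genes in 31 promoters. A MEF2 site was found on either strand in 6 genes (19.4% of their promoters against 3.19% of all 32851 promoters), and a CArG box, the serum response factor motif, in 4 genes (16.1% against 1.63%). The E-box CAGCTG was in 14 genes (48.4% of promoters against 16.3%), and CATTCC, the core of the MCAT motif, on either strand in 9 genes (29.0% against 14.7%). These shares are descriptions, a match is not a bound site, and the motifs overlap in genes such as Myh4, which held all 4. The sequences below show each MEF2 and CArG match with 10 bases on each side, 5′ to 3′ on the strand of the gene, the motif in capitals.
Xirp2 MEF2, chr2:67445918-67445947, plus strand: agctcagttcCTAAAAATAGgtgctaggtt
Ttn MEF2, chr2:76982694-76982723, minus strand: ttctgaaaggCTAAATTTAGcactgccaat
Pgam2 MEF2, chr11:5803857-5803886, minus strand: ttttgtgagaCTATTTTTAAgttcagctcc
Myh1 MEF2, chr11:67199881-67199910, plus strand: acaactcaaaTTATTTATAGgagattgatt
Myh4 MEF2, chr11:67237620-67237649, plus strand: ccctgtcaaaTTATTTATAGatgacaagaa
Pvalb MEF2, chr15:78206561-78206590, minus strand: aggccaagggTTATTAATAGgcctggctca
Acta1 CArG, chr8:123894829-123894858, minus strand: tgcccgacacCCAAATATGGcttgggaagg
Myh4 CArG, chr11:67237698-67237727, plus strand: aaagagattgCCAAAAATGGttttgccaag
Ldb3 CArG, chr14:34588697-34588726, minus strand: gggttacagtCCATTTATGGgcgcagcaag
Myom1 CArG, chr17:71019448-71019477, plus strand: gccttcctggCCATAAAAGGctggctgtgg
The same 10 letters formed the MEF2 match of the neighbouring genes Myh1 and Myh4, 211 and 182 bases before their starts. In Myh4 the CArG box followed at 104 bases before the start, and in Acta1 it began 73 bases before.

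The mix of fast myosin heavy chains was read in the 90 mice with at least 100 UMIs of Myh1, Myh2 and Myh4 together, which left out 63 mice of low counts. Myh4 was the main form, with a median share of 73.6% (12.0% to 84.9%), followed by Myh1 with 20.9% (10.7% to 84.0%) and Myh2 with 5.29% (0% to 10.6%). Myh1 was under 30% in 71 of these mice and exceeded Myh4 in 9 mice, which came from 9 different groups. The highest Myh1 share was 84.0% of 125 UMIs (95% Wilson interval 76.6% to 89.4%, counting error only) in 7 d scratched nZnO replicate 8. It was 68.9% of 206 UMIs (62.3% to 74.9%) in 24 h scratched nAg replicate 2. The lowest share was 10.7% of 707 UMIs (8.67% to 13.2%) in naive replicate 9. The mice with more Myh1 than Myh4 all had a muscle score of 5.88 or less. Over the 90 mice the Myh4 share had a Pearson r of 0.56 and a Spearman rho of 0.53 with the mean of the other 35 muscle genes, and the Myh1 share -0.58 and -0.56.

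**Figure D4:**
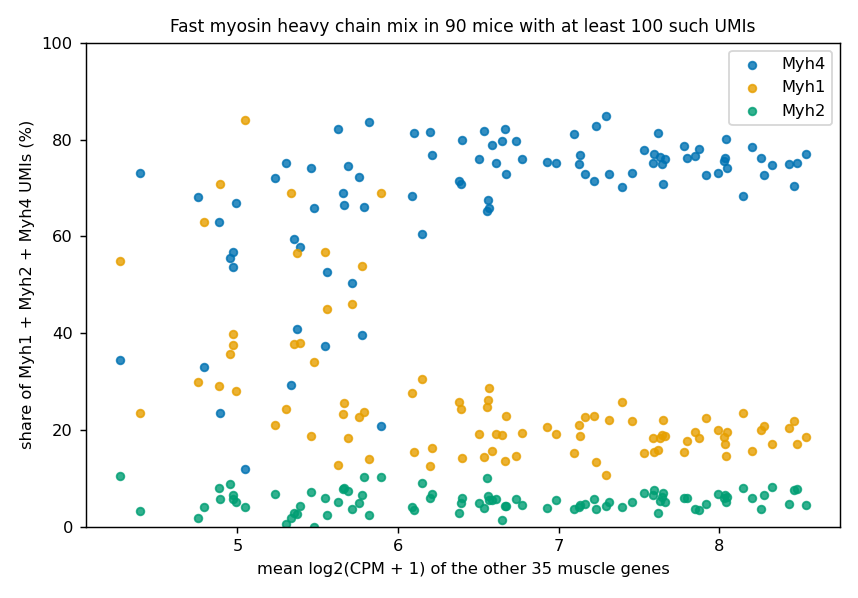
Share of Myh1, Myh2 and Myh4 in their summed UMIs (y axis, %) against the mean log2(CPM + 1) of the other 35 muscle genes (x axis) in 90 mice with at least 100 such UMIs. Myh4 leads in most mice at a median of 73.6%, while 9 mice, all at 5.89 or less on the x axis, hold more Myh1 than Myh4.

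Other muscle genes went with this mix at a given amount of muscle. In the same 90 mice the partial correlation with the Myh4 share, given the mean of the remaining muscle genes, was -0.49 for Mb, -0.44 for Myot and -0.36 for the slow form Mybpc1. It was 0.47 for the fast form Mybpc2, 0.39 for Smpx, 0.38 for Pygm and 0.29 for Myl1. On ranks the values were -0.58 for Mb, -0.37 for Myot, -0.44 for Mybpc1 and 0.33 for Myl1, and only 0.22, 0.18 and 0.16 for Mybpc2, Smpx and Pygm. The Pearson values of the other 28 genes lay between -0.25 and 0.26, and on ranks Pvalb was at 0.35 and Actn2 at -0.31. Mice of a pool share a library, and these values carry no test. The mature myosin genes are near-identical in parts of their coding sequence, and reads that they share would not have been counted, since only uniquely aligned reads were used.

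Scratching was compared with intact skin under the same dressing. With PBS at 24 h, all 35 muscle genes tested were lower in scratched skin, with a median log2 fold change of -1.06 against -0.01 over all genes tested, and 0 passed the test. Mybpc1 had the smallest p, at a median of 7.56 CPM (2.62 to 40.1) in scratched and 16.3 CPM (9.43 to 85.0) in intact skin. The ranges overlapped widely, and edgeR gave it a log2 fold change of -1.41 ± 0.51 (SE) with an adjusted p of 0.145. By edgeR 6 of the 35 genes had an unadjusted p under 0.05, as did 2089 of all 11872 genes tested. The muscle genes varied together, so counts of them here and in the comparisons below are not counts of independent results. By DESeq2 and limma 0 of the 35 were called, whereas edgeR called 3.39% of all genes tested. Of the companion genes Dmd fell (log2 fold change -0.61, standard error 0.15, adjusted p = 0.0308), as did the adipocyte gene Cfd (-0.56, adjusted p = 0.0263). The keratinocyte gene Krt15 also fell (-1.02, adjusted p = 0.00298), while the fibroblast gene Pdgfra rose (0.51, adjusted p = 0.0469), all by edgeR. Their lists went in the opposite direction to Krt15 and Pdgfra, with overlapping ranges. The keratinocyte list summed to a median of 7543 CPM in scratched and 6994 CPM in intact skin. For the fibroblast list it was 6238 and 7134 CPM. The median of the 10 adipocyte genes was -0.43. The median of the muscle genes was -1.73 with pool as covariate, which rests on pool 1, the only pool shared. Without 24 h PBS replicate 6 and without the covariate, the median was -0.66. Without 24 h scratched PBS replicate 6, 1 muscle gene was called, Mybpc1 (log2 fold change -1.93, adjusted p = 0.0429 from edgeR). At 7 d all 34 genes tested were again lower in scratched skin with PBS (median -0.62), 0 were called by edgeR with 0 at an unadjusted p under 0.05, and 0% of all genes were called. Leaving out single mice moved that median from -0.37 (without 7 d PBS replicate 8) to -1.20 (without 7 d scratched PBS replicate 2). In the latter fit 5 muscle genes had an unadjusted p under 0.05, against 1460 of all 11496 genes tested.

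With nAg at 24 h the direction was opposite. All 30 muscle genes tested were higher in scratched than in intact skin, with a median log2 fold change of 1.45. Of the 30, 18 had an unadjusted p under 0.05, against 1744 of all 11620 genes tested. The fit with pool as covariate gave a median of 0.71 with 1 muscle gene at an unadjusted p under 0.05, against 1556 of all 11620 genes. It rests on pool 1, the only pool shared. With limma trend the median was 0.67, and 0 of the 30 had such a p, against 1724 of all 11620 genes. Tcap was at a median of 67.2 CPM (4.98 to 277) in scratched nAg and 17.4 CPM (5.27 to 52.9) in intact nAg. The groups overlapped, the lowest scratched mouse lying just below the lowest intact mouse, and the log2 fold change was 2.34 ± 0.69 (SE) with an adjusted p of 0.0974 by edgeR. None of the 30 was called, while 1.51% of all genes were. Without the filter on low counts, Tcap was called at an adjusted p of 0.0143. Of the companion genes Tpm2 rose (0.58, standard error 0.12, adjusted p = 0.0206) and Fbxo32 fell (-0.68, standard error 0.16, adjusted p = 0.0394). The adipocyte gene Retn fell too (-1.17, adjusted p = 0.0266 by edgeR). It was the only called gene of the 10 in its list, whose median log2 fold change was -0.09. Fbxo32 also fell with nZnO at 24 h (-0.57, standard error 0.15, adjusted p = 0.0328). There the median of the 35 muscle genes was 0.12, 25 were higher and 10 lower, and 0 were called against 5.33% of all genes, with 0 at an unadjusted p under 0.05. With nTiO2 at 24 h, 28 of 29 genes were higher (median 0.38), 0 were called against 2.15%, and 0 had an unadjusted p under 0.05. With pool as covariate, resting on pool 3 alone, that median was -1.24, so no direction is given for nTiO2.

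At 7 d the contrast was widest with nZnO. All 34 genes tested were lower in scratched skin (median log2 fold change -1.57), and 0 were called against 0.944% of all genes. Of the 34, 28 had an unadjusted p under 0.05, against 1829 of all 11760 genes tested. Mb, the myoglobin gene, was at a median of 59.7 CPM (5.32 to 322) in scratched nZnO and 171 CPM (52.5 to 611) in intact nZnO. These groups overlapped, and the log2 fold change was -1.66 ± 0.58 (SE) with an adjusted p of 0.168 by edgeR. Without 7 d nZnO replicate 7 the median was -1.35, and 9 had an unadjusted p under 0.05, against 1774 of all 11662 genes. With nAg at 7 d the median was -0.17 (0 called against 0.611%), and with nTiO2 it was 0.63, all 35 genes being higher (0 called against 0.135%). With nTiO2 1 muscle gene had an unadjusted p under 0.05, against 1510 of all 11859 genes tested.

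The difference between the effects of scratching with a nanomaterial and with PBS was tested as an interaction over 4 groups. For nAg at 24 h all 35 muscle genes tested had a positive difference (median log2 difference 2.58), and 32 had an unadjusted p under 0.05. None passed the adjustment (smallest adjusted p = 0.894 from edgeR), and 0% of all 12078 genes were called. For nTiO2 and nZnO at 24 h the medians were 1.42 and 1.19, with 3 and 2 genes at an unadjusted p under 0.05, and in both 0 muscle genes and 0% of all genes were called. At 7 d the medians were 1.23 for nTiO2, -0.96 for nZnO and 0.44 for nAg, with 0 muscle genes called in each and 0%, 0.00828% and 0.115% of all genes called. No muscle gene had an unadjusted p under 0.05 in these 7 d tests. How many of all genes had such a p was not counted for the interactions. The 3 tests of a time point share the same PBS and scratched PBS mice, so their medians are not independent. Without 7 d nZnO replicate 7 the nZnO median was -0.75, again with 0 called.

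Scratched skin without PBS was compared with naive skin. At 24 h the median log2 fold change of 36 muscle genes was 0.01, with 19 higher and 17 lower, and 0 called against 2.93% of all genes. At 7 d all 30 genes tested were lower (median -1.03), and 0 were called against 1.23%. Of the 30, 5 had an unadjusted p under 0.05, against 1667 of all 11423 genes tested. With pool as covariate the 7 d median was -0.93. That value rests on pool 5, the only pool shared, with 3 scratched mice and 1 naive mouse. The 24 h median with that covariate was -2.18, which rests on pool 2, with 4 mice of each group. All 36 genes were lower, with 0 called (smallest adjusted p = 0.0626 from edgeR). All 36 had an unadjusted p under 0.05, against 2107 of all 11628 genes tested.

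**Figure D5:**
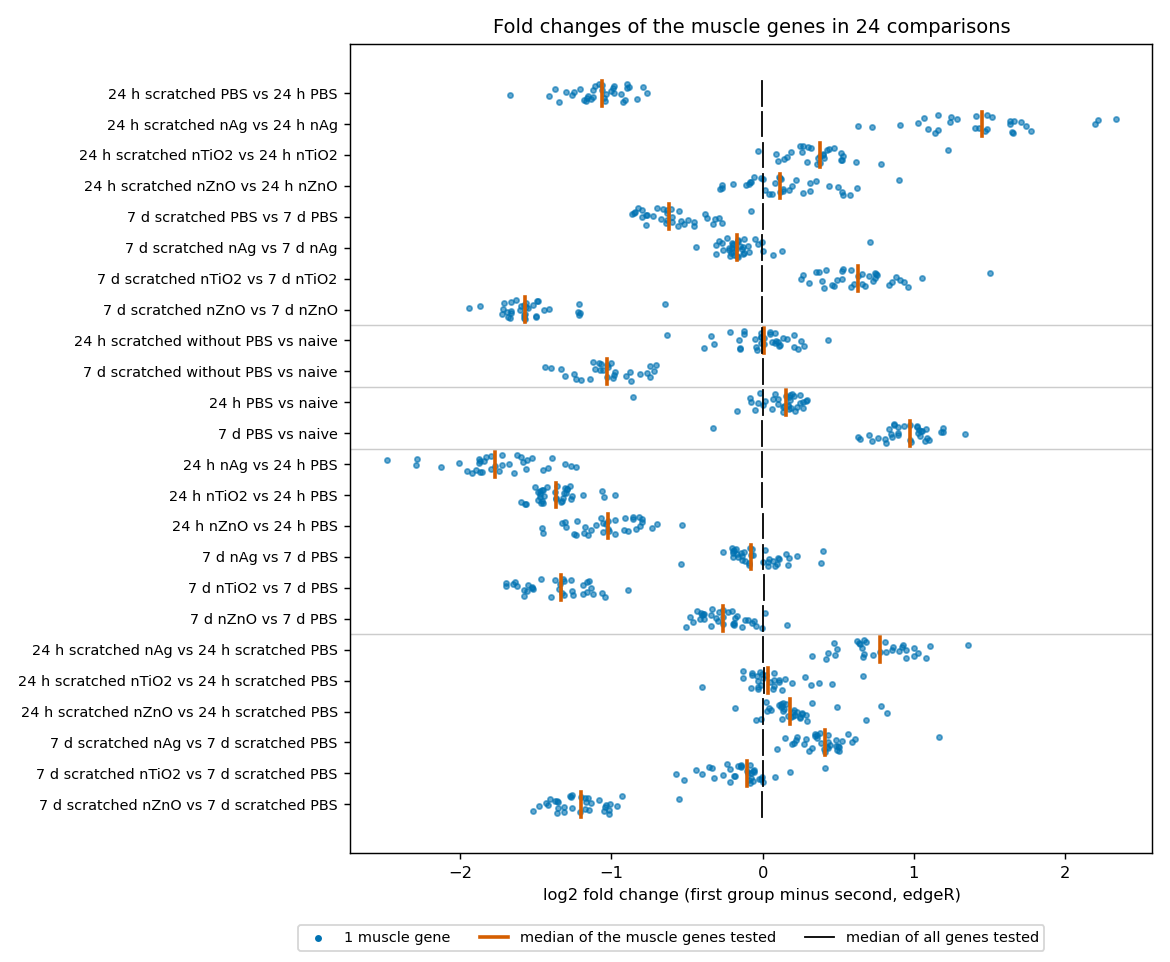
Log2 fold change (first group minus second, edgeR) of each muscle gene tested in 24 pairwise comparisons (points), their median (orange bar) and the median of all genes tested (black bar). The muscle genes lie close together within each comparison, at medians from -1.77 to 1.45, and none was called.

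Nanomaterials on intact skin were compared with PBS. All 35 muscle genes tested were lower with nAg at 24 h, with a median log2 fold change of -1.77, the lowest of the 24 comparisons. Pygm, the glycogen phosphorylase, was at a median of 4.20 CPM (1.09 to 17.4) with nAg and 17.6 CPM (3.53 to 116) with PBS. The groups overlapped, and the log2 fold change was -2.48 ± 0.67 (SE) with an adjusted p of 0.444 by edgeR. All 35 genes had an unadjusted p under 0.05, against 842 of all 11684 genes tested. As the 35 genes varied together, they do not stand for 35 separate results. Of the 35, 0 were called, as were 0% of all genes. Without the filter on low counts Pygm was called at an adjusted p of 0.0362. All 35 genes were also lower with nTiO2 (median -1.37) and with nZnO (median -1.03) at 24 h. With nTiO2 29 had an unadjusted p under 0.05, against 791 of all 12057 genes tested. With nZnO it was 10, against 661 of all 11816 genes. In both, 0 muscle genes and 0% of all genes were called. In the fit with pool as covariate, the medians were -1.77 with nAg, -1.54 with nTiO2 and -1.27 with nZnO. All 35 genes then had an unadjusted p under 0.05 with nAg, 6 with nTiO2 and 3 with nZnO. Among all genes tested, 847 of 11684, 740 of 12057 and 489 of 11816 had such a p in these fits. These estimates rest on the pools shared with PBS, which were pools 1 and 3 for nAg, pool 3 for nTiO2 and pool 1 for nZnO. The 3 comparisons share the 8 PBS mice. At 7 d the medians were -1.33 with nTiO2 (all 34 lower, 19 at an unadjusted p under 0.05, 0 called against 0%), -0.26 with nZnO (0 called against 0.0442%) and -0.08 with nAg (0 called against 0.0859%). Without nZnO replicate 7 the nZnO median was -0.48, all 35 genes being lower, and 16 rather than 5 of all genes were called. With limma trend the nZnO and nAg medians were 0.07 and 0.31, so no direction is given for them. With pool as covariate, resting on pool 3 alone, the 7 d nTiO2 median was -0.13 and 0 had an unadjusted p under 0.05. Without the covariate, 989 of all 11288 genes tested for 7 d nTiO2 had such a p.

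On scratched skin, nanomaterials were compared with scratched PBS. At 24 h the medians were 0.77 with nAg, 0.04 with nTiO2 and 0.18 with nZnO, with 0 muscle genes and 0% of all genes called in each. At 7 d the medians were 0.41 with nAg (all 34 higher, 0 called against 0.00835%), -0.11 with nTiO2 (0 called against 0%) and -1.20 with nZnO (all 34 lower, 0 called against 0%). Without a covariate none of these 6 comparisons had a muscle gene at an unadjusted p under 0.05 by edgeR. When pool was a covariate, the 24 h nTiO2 median was 1.64, with all 30 genes higher, resting on pool 1 alone. Of the 30, 11 had an unadjusted p under 0.05, against 1136 of all 11608 genes. The 24 h nZnO median, resting on pool 2 alone, was then -0.09, and 509 of all 11590 genes were called but 0 muscle genes. The 7 d medians were then -1.28 with nZnO, -0.71 with nTiO2 and 0.61 with nAg. With nZnO 6 muscle genes had an unadjusted p under 0.05, against 802 of all 11971 genes. Across all 24 comparisons the standard errors of the muscle genes were between 0.29 and 1.03 log2 units with a median of 0.64. The groups overlapped in all 814 gene and comparison pairs. The share among all genes was not measured, so this is no trait of the muscle genes.

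PBS on intact skin was compared with naive skin. At 24 h the median log2 fold change was 0.16 (28 of 35 higher, 0 called against 0.692% of all genes). At 7 d it was 0.97, with 34 of 35 higher and 0 called against 0.24%. Without a covariate neither had a muscle gene at an unadjusted p under 0.05. Adding pool as covariate gave a 24 h median of 2.67, with all 35 genes higher and 0 called (smallest adjusted p = 0.285 from edgeR). This estimate rests on pool 1, the only pool shared, with 4 mice of each group. Of the 35 genes, 34 had an unadjusted p under 0.05. Over all 11709 genes 857 had such a p and 5 were called. Without naive replicate 9 the 24 h median was 0.24, and 17 rather than 81 of all genes were called. Among the 81 genes called at 24 h with all mice and no covariate were keratins of the hair cortex such as Krt35, which rose (4.45, standard error 0.80, adjusted p = 0.0125) and whose list had a correlation of 0.11 with the muscle score.

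The 7 d PBS comparison differed inside its only shared pool. With pool as covariate all 35 muscle genes tested were called higher in 7 d PBS (median 4.36, smallest adjusted p = 1.05e-05 from edgeR, background 1.22%), an estimate that rests on pool 1 alone. In that pool Mylpf, the fast light chain, stood at 505, 71.4, 108 and 287 CPM in the 4 naive mice and at 2734, 3151, 3391 and 3023 CPM in the 4 PBS mice. Myh4 stood at 18.3, 2.16, 14.0 and 23.1 CPM in the naive mice and at 495, 964, 859 and 1058 CPM in the PBS mice. The PBS mice were thus high and close to each other, and the naive mice low, with no overlap. A fit of pool 1 alone, added after the data were seen, called all 38 genes higher (median 4.35, background 2.79%). The 38 genes all had non-overlapping groups, against 7% of the 11852 genes tested. For Myh4 the log2 fold change was 5.96 ± 0.32 (SE) with an adjusted p of 4.29e-10 by edgeR, and for Des, the lowest, it was 2.82 ± 0.19.

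The mice of the same groups outside pool 1 did not share this contrast. The 4 PBS mice of pool 3 had scores of 5.77, 4.94, 3.64 and 4.02, and the 4 naive mice of pool 2 had 7.65, 8.01, 4.41 and 6.36. The naive mouse of pool 5 had 7.26. Of the 4 naive mice of pool 2, 2 thus lay at the level of the PBS mice of pool 1 (7.60 to 8.41), and the PBS mice of pool 3 overlapped the naive mice of pool 1 (2.64 to 4.78). The 4 mice of 24 h PBS in pool 1 ranged from 4.46 to 7.98. Mice were housed 4 to a cage, the files used here do not give the cage, and its part in these sets of 4 was not tested.

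Over all 19 groups, an F test by edgeR called 28 of 37 muscle genes (background 34% of 12757 genes). The smallest adjusted p was 0.000889 for Cacna1s, the calcium channel, whose group medians were between 1.13 CPM in 7 d scratched nZnO and 14.6 CPM in 7 d nAg. Abundant genes were among the 9 not called, with adjusted p of 0.196 for Tnnc2 and 0.162 for Mylpf. The count depended on the test. With limma trend on log2 CPM only Cacna1s was called (adjusted p = 0.0458, background 32.9%), and 4 genes had an unadjusted p under 0.05. With pool as covariate edgeR again called 28 (background 20.6%), and the pool term itself called 17 (background 2.09%). The median score was 5.08, 5.34, 4.77 and 4.69 in pools 1 to 4 and 7.20 in pool 5, which held 24 mice of 7 d groups and 1 naive mouse.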

How the data were processed

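RNA of upper back skin biopsies (153 SKH-1 mice) was sequenced from the 3′ end. The authors dropped reads under 20 bp, aligned the rest to GRCm39 (Gencode M28) with STAR 2.7.6a, and counted UMIs of uniquely aligned reads with Drop-seq tools 2.4.1. The deposited values are raw counts for 36716 genes, without normalization. The deposited barcode table holds a score of RNA quality, the RNA integrity number. The GEO samples are 5 sequencing pools, so the group of each mouse was taken from the deposited tables.

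Each comparison used the mice of its groups. A gene was kept where over 5 counts were reached by 75% or more of either group's mice, followed by TMM scaling and edgeR's quasi-likelihood test (R 4.3.3, edgeR 4.0.16, limma 3.58.1, DESeq2 1.42.0). A gene was called where its p, adjusted by Benjamini–Hochberg over all genes tested, was under 0.05 and its log2 fold change reached 0.33 in size. The fit over all groups was an F test on the adjusted p alone. The study itself used DESeq2. The scripts were tested on simulated data. The members and lists were chosen with earlier results of these data known, so the score and its correlations carry no p-value. Named genes are all members, the 10 genes most and the 3 least correlated with the score, and list members of high level. Some, not all, of the called genes of the companion lists are also named. Other examples, such as the marker genes listed at 0, were chosen after their values were seen. No pair of mice of a group had identical counts. Companion lists were slow fibre, heart muscle, developmental myosin, other skeletal muscle, myogenic regulator, neuromuscular junction, smooth muscle, Schwann cell, adipocyte, brown adipocyte, fibroblast, keratinocyte, hair cortex, endothelium, red blood cell and macrophage genes. Mice were treated as independent samples, and cage could not be included. Scores take mean log2(CPM + 1), with a pseudocount of 1. Alternatives were DESeq2, limma trend, RLE scaling, no filter, 1 fit for all groups, pool as covariate, no minimum fold change, other pseudocounts (0.5 and 5) and denominators, and leaving out mice. Leaving out the mice of lowest depth or of conflicting label, and the only naive mouse of its pool, pool 1 alone, the interaction terms and further tests over all groups were added after the data were seen.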

Additional observations from a re-analysis of the deposited data

Results flagged for a closer look

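Single mice that stood apart from their group were looked for in the muscle score of the 19 groups and in the 38 genes by group, on log2(CPM + 1), with Dixon's test. By chance about 1 in 20 sets would be picked. No mouse stood apart in the score, and 4 of 722 sets of a gene and a group had one. Myot was at 0 CPM in 24 h nAg replicate 8, while the other mice of the group were at 3.80 to 12.3 CPM. Myh1 was at 0 CPM in 7 d PBS replicate 3, the mouse of the lowest total count, and at 33.9 to 288 CPM in the others. Ldb3 was at 0 CPM in 7 d scratched without PBS replicate 3, and at 5.32 to 23.1 CPM in the others. Tmod4 was at 74.1 CPM (101 UMIs) in 7 d scratched nZnO replicate 2, whose muscle score of 7.85 was the highest of its group, and at 2.66 to 13.7 CPM in the others.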

How the results depend on the processing

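Of 207 alternative settings of the 24 pairwise comparisons, 202 called 0 muscle genes, as did the reported tests. The exceptions were no filter on low counts in 24 h nAg versus PBS (1 gene) and in 24 h scratched nAg versus nAg (1 gene), pool as covariate in 7 d PBS versus naive (35 genes), pool 1 alone in the same comparison (38 genes, chosen after seeing the data), and leaving out single mice in 24 h scratched versus intact PBS, with 0 to 1 genes called. In 7 d PBS versus naive without the covariate, leaving out 7 d PBS replicate 3 or naive replicate 9 called 0. Over all groups the edgeR count of 28 became 1 with limma trend and 1 with limma trend and pool as covariate (Cacna1s in both), 22 with robust estimates and 28 with the DESeq2 likelihood ratio test, the tests other than limma trend alone being added after seeing the data, and the cause was not tested. The median fold change of the muscle genes changed sign in 9 of the 207 settings, all in comparisons without calls. The score difference between scratched and intact PBS was -0.81 at 24 h and -1.02 at 7 d, and leaving out each mouse gave -1.38 to -0.24 and -2.01 to -0.03; the value nearest 0 came without any 1 of 4 scratched mice (24 h: replicates 1, 4, 7 and 8; 7 d: replicates 5 to 8). The other score settings, pseudocount, scaling and summary, moved group medians by less than 1 SD. No paired analysis was possible because the number of a mouse only names it within its group. Genes with few counts, such as Mylk2 and Cacna1s, limit what can be seen for single genes.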
